A study of Mus musculus with 17 samples.

Results

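The loci of 5 genes of glucose metabolism were examined in the Sirt6, histone acetylation and 5-hydroxymethylcytosine profiles of mouse embryonic stem cells. The genes were Slc2a1, Ldha, Pdk1, Tpi1 and Aldoc, taken as Sirt6 targets known from outside these files. The deposited files give mm9 positions and no gene names, so each gene was taken between rounded mm9 bounds with 10 kb on each side, which came to 180 kb in all. These stretches held 10 of the 14510 Sirt6 peaks of wild type cells, 2 of the 21442 peaks of the 8 acetylation lists, and 1 of the 3780 deposited 5-hydroxymethylcytosine windows. RNA was not measured in the files used here, so nothing below speaks of the expression of these genes.

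The cells came from the 129 strain and were either wild type for Sirt6 (WT) or Sirt6 knockout (KO). Binding of Sirt6 was mapped by chromatin immunoprecipitation and sequencing (ChIP-seq) in untreated cells. There was 1 WT library, and KO cells had 2, made with a lower and a higher amount of antibody. H3K9ac and H3K56ac, acetylated lysines of histone H3, were profiled in WT and KO cells, untreated or after 2 days in retinoic acid (RA) without leukemia inhibiting factor, which gave 8 libraries. For CMS-IP, genomic DNA was bisulfite-treated and pulled down with an antiserum to cytosine methylenesulfonate, the product that bisulfite makes from 5-hydroxymethylcytosine, and untreated WT and KO cells each had an IP and an input library. All 17 samples were single libraries of their group, so no difference between genotypes or treatments has a replicate check. Intervals and the authors' p-values compare the reads of single libraries, not the conditions. The embryonic stem cells had been kept on feeder fibroblasts, which were removed by plating before use. The sources used here do not say how many clones each genotype stands for.

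Glycolysis turns glucose into pyruvate, which is either reduced to lactate or passed to the mitochondrion. Sirt6 is a NAD-dependent deacetylase that removes acetyl groups from lysines 9 and 56 of histone H3. In other work it has been described as a repressor of glycolysis genes that sits at their promoters and opposes the hypoxia-inducible factor Hif1a, and cells without it take up more glucose. Among the 5 genes, Slc2a1 encodes the glucose transporter Glut1. Aldoc is the C isozyme of aldolase, which splits the phosphorylated hexose into trioses, and Tpi1 interconverts those trioses. Ldha encodes a subunit of lactate dehydrogenase, which reduces pyruvate to lactate. Pdk1 is a kinase that inhibits pyruvate dehydrogenase and so keeps pyruvate from the mitochondrial route.

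The Sirt6 calls lay at the starts of 4 of these genes, so the 250 bases upstream of the RefSeq start are shown for those 4. They are from RefSeq for GRCm38.p6, written 5′ to 3′ on the strand of the gene, and matched by gene symbol. Capitals mark each match to ACGTG or GCGTG on either strand, the cores of the element that hypoxia-inducible factors bind. RefSeq lists 2 starts for Ldha, Pdk1 and Aldoc, and where a gene is shown or counted once it is by the first.

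Slc2a1: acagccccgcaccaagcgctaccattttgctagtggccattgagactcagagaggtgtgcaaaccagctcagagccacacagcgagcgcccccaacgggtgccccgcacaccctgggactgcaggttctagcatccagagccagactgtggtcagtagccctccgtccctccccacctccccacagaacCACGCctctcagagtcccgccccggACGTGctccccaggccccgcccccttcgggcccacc

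Ldha: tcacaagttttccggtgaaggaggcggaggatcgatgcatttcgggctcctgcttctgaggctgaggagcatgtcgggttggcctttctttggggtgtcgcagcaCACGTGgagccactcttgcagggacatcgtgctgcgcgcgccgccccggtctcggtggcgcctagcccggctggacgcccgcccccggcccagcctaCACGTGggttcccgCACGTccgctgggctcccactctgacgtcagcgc

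Pdk1: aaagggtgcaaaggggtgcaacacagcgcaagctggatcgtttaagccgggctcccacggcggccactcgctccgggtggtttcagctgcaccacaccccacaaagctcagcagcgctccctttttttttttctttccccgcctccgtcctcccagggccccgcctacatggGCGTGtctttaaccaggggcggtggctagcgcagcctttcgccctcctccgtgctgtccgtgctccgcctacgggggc

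Tpi1: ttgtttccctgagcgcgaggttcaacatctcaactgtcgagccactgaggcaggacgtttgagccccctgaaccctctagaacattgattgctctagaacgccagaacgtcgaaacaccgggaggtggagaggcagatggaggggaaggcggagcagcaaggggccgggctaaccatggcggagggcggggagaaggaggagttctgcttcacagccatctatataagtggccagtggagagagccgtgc

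The core stood at 3 places before the Ldha start, at 2 before Slc2a1, at 1 before Pdk1 and at none before Tpi1. At 2 of the Ldha places it was part of CACGTG, a palindrome that also matches on the other strand. Upstream of Aldoc, which is not printed, GCGTG matched at 1 place. At least 1 core was present in 38.6% of the 32841 RefSeq promoter windows of this length, which count every listed start, and in 6 of the 8 windows of the 5 genes. GGGCGG, the GC box, was present on either strand in 32.7% of all windows and in 5 of the 8. It was at the first start of each gene and at none of the second starts of Ldha, Pdk1 and Aldoc. At the first starts there were 25 CpG dinucleotides for Ldha, 19 for Pdk1, 13 each for Slc2a1 and Tpi1, and 5 for Aldoc, where the median over all windows was 6. The second starts held 1 core and 9 CpG at Ldha, 0 cores and 2 CpG at Pdk1, and 1 core and 3 CpG at Aldoc. A match describes letters in the window and is not a binding site. The windows could not be placed on the mm9 positions of the peaks.

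In WT cells each of the 5 loci held at least 1 Sirt6 peak, and in 4 of them a peak lay inside the gene near its start. The fold enrichment of a peak, a value the authors computed with their peak caller, compares the tags piled up at its summit with the local background. The peaks counted 2 at Slc2a1, 3 at Ldha, 1 at Pdk1, 3 at Tpi1 and 1 at Aldoc. Both KO Sirt6 lists held 0 peaks, at these loci as everywhere. The KO libraries held 40006795 and 48956556 tags after filtering against 2008232 in WT. The whole-cell extracts they were called against held 5113859 tags in KO and 6251712 in WT. The part of these unlike depths in the calls was not tested. The genome was divided into 71619 tiles of 35941 bp, the mean length of the 5 loci, and 12.2% of the tiles held a WT Sirt6 peak. On the genes' own chromosomes that share ran from 10.4% on chromosome 6, where Tpi1 lies, to 20.9% on chromosome 11, where Aldoc lies. The loci held 55.6 Sirt6 peaks per Mb, and the tiled chromosomes 5.61 per Mb. The tiles include stretches without genes, and a background of gene loci of the same build was not used here.

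**Figure D1:**
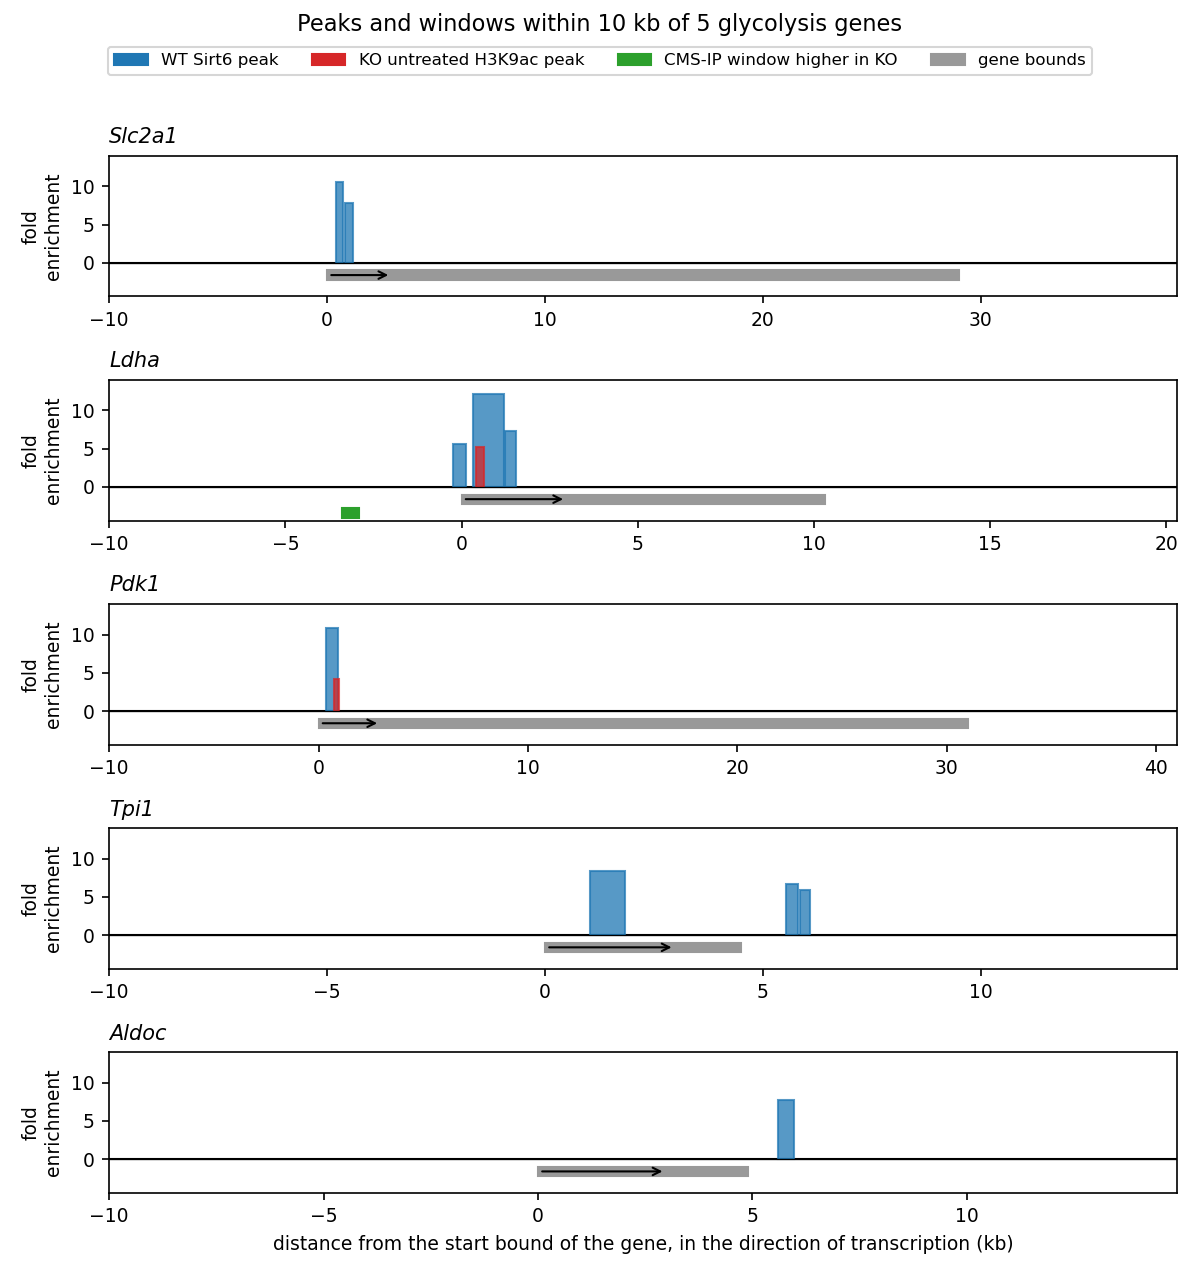
Maps of the 5 loci with the distance from the start bound of each gene in kb along the direction of transcription, and the authors' fold enrichment as bar height for WT Sirt6 peaks (blue) and untreated KO H3K9ac peaks (red). Grey bars are the rounded gene bounds, the arrow shows the direction of transcription, and the green box, which has no height scale, is the CMS-IP window. Sirt6 peaks sit within 2000 bp of the start bound at Slc2a1, Ldha, Pdk1 and Tpi1 and only beyond the far end at Aldoc, and the red bars lie within or across the edge of a blue one.

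Ldha carried the strongest Sirt6 peak of the 5 loci. Its bounds run from 54100900 to 54111200 on chromosome 7, on the plus strand. The strongest peak lay from 54101237 to 54102101, was 865 bp long and had a fold of 12.1 from 14 tags at its summit (95% Poisson interval 7.65 to 23.5). It ranked in the top 13.7% of all WT Sirt6 peaks by fold. A weaker peak from 54100667 to 54101030 crossed the start bound, with a fold of 5.66 from 6 tags (2.20 to 13.1) and a summit 21 bp into the bounds. Another from 54102129 to 54102435, with a fold of 7.28 from 8 tags (3.45 to 15.8), followed the strongest peak after 27 bp. The first and the strongest peak were 206 bp apart. The 3 calls lay side by side over the start of the gene, and their intervals of summit tags overlap.

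At Slc2a1, bounded by 118781000 and 118810000 on chromosome 4 on the plus strand, both peaks lay just inside the start. The first ran from 118781429 to 118781729, with a fold of 10.6 from 13 tags (6.92 to 22.2), and its summit lay 530 bp from the start bound. The second ran from 118781825 to 118782204, with a fold of 7.79 from 9 tags (4.12 to 17.1). They were 95 bp apart, and the rest of the transporter gene held no call.

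Pdk1 showed the same arrangement with a single peak. Its bounds are 71711000 and 71742000 on chromosome 2, on the plus strand, and the peak ran from 71711364 to 71711939, with its summit 571 bp from the start bound. The fold was 10.9 from 13 tags (6.92 to 22.2), in the top 22.2% of all WT Sirt6 peaks. No other Sirt6 peak lay within 50 kb of this gene.

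Tpi1 lies on the minus strand of chromosome 6, between 124760500 and 124765000, so that its start is at the higher position. An 802 bp peak from 124763165 to 124763966 lay inside the gene, towards its start, with a fold of 8.33 from 10 tags (4.80 to 18.4), and its summit was 1225 bp from the start bound. The bounds are 4501 bp wide and RefSeq gives the gene 3573 bp, so the start bound may lie outside the transcript. A pair of weak peaks, from 124758915 to 124759159 (fold 5.91, 7 tags) and from 124759197 to 124759468 (fold 6.64, 8 tags), lay 1341 and 1032 bp beyond the far end, on the side of the neighbouring gene Spsb2.

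Aldoc differed from the other 4 genes in the place of its peak. Its bounds are 78136400 and 78141300 on chromosome 11, on the plus strand, and no Sirt6 peak lay inside them. The single peak, from 78142000 to 78142368 with a fold of 7.72 from 10 tags (4.80 to 18.4), began 700 bp after the end of the gene. The next gene on that side in RefSeq is Pigs. Which of these genes a peak belongs to cannot be told from positions alone.

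With a Sirt6 summit within 2000 bp of the start bound at 4 of the 5 genes, the background for that distance was 1.68% of positions taken every 1000 bp along the chromosomes. These positions include stretches without genes. The share for the starts of other genes was not counted, so whether these 4 differ from gene starts in general was not tested. The distance was chosen after the positions were seen. The 10 peaks were of ordinary strength for this list, with folds of 5.66 to 12.1 and a median of 7.75, where the median of all 14510 peaks was 8.08 and the highest fold was 33.3. Of the 10, 4 were above that median: the strongest peak at each of Ldha, Pdk1, Slc2a1 and Tpi1. They were also of ordinary length, with a median of 366.5 bp against 384 bp. Another Sirt6 peak lay within 1000 bp of 7 of the 10, and of 51.2% of all peaks. Each call rested on 6 to 14 tags at the summit. With a −log10 q of at least 10, 3 of the 10 peaks were left, 1 each at Ldha, Pdk1 and Slc2a1, where 44.4% of all WT Sirt6 peaks passed.

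**Figure D2:**
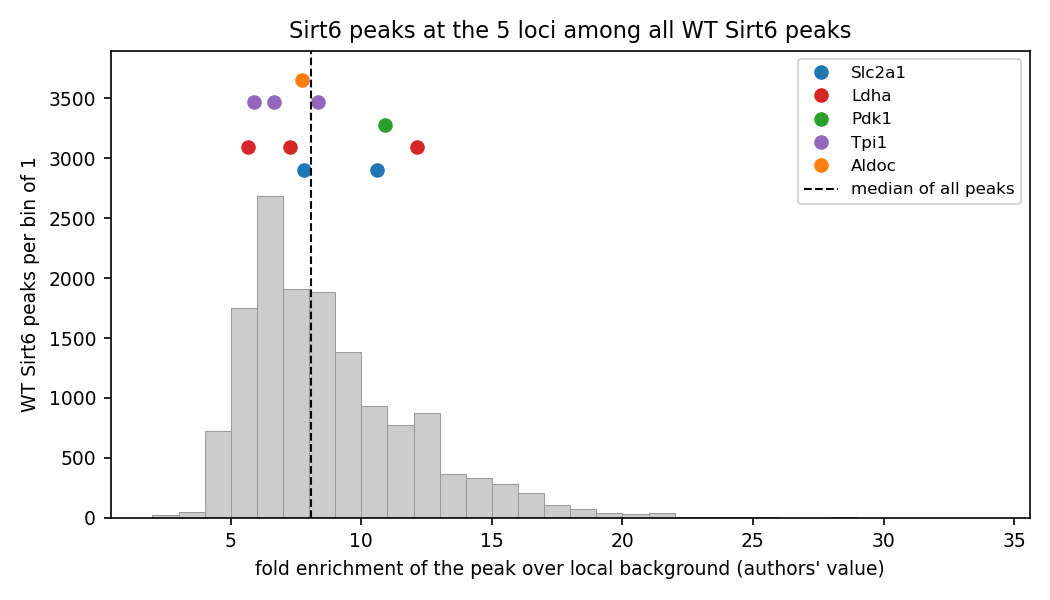
Histogram of the authors' fold enrichment of all 14510 WT Sirt6 peaks in bins of 1, with the number of peaks on the vertical axis. Coloured points above it, at arbitrary heights, give the folds of the 10 peaks at the 5 loci, which run from 5.66 to 12.1 around the dashed median of 8.08.

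Among the 8 acetylation lists, only that of H3K9ac in untreated KO cells had peaks at these loci, 1 at Ldha and 1 at Pdk1. Both were inside the gene near its start, and both overlapped a WT Sirt6 peak, the strongest of the 3 at Ldha and the only one at Pdk1. The H3K9ac peak at Ldha ran from 54101309 to 54101541 and lay wholly inside the 865 bp Sirt6 peak, with its summit 209 bp from the Sirt6 summit. It had a fold of 5.22, a −log10 q of 5.83 and 16 tags at its summit (9.15 to 26.0). The one at Pdk1 ran from 71711748 to 71711959 and shared 192 of its 212 bp with the Sirt6 peak. Its fold was 4.18, its −log10 q 3.80 and its summit held 15 tags (8.40 to 24.7).

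An H3K9ac peak of the untreated KO list overlapped 2 of the 10 Sirt6 peaks of the loci and 9.30% of all 14510. In the other 7 lists it was 0 of the 10, and 1.03% to 4.03% of all. Of the 5 loci, 2 held a peak of the untreated KO H3K9ac list and 0 one of the untreated WT list, where 4.58% and 3.46% of the genome tiles did. After RA, the shares for H3K9ac were 3.27% in WT and 3.94% in KO. For H3K56ac they were 3.47% in untreated WT, 2.86% in untreated KO, 2.60% in WT after RA and 2.84% in KO after RA. With 5 loci and such shares, a list without a peak at any of them is near the background, and the absence of calls after RA and for H3K56ac is no result about these genes. For the 2 KO H3K9ac calls the tiles are an unlike background. They include stretches without genes, and 12.2% of them held a WT Sirt6 peak, where each of the 5 loci did.

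The calls at Ldha and Pdk1 were weak ones. By fold they ranked 3147 and 3536 among the 3593 peaks of the untreated KO H3K9ac list. Of the 1347 peaks of that list that overlapped a WT Sirt6 peak, whose median fold was 5.74, 71.5% had a higher fold than the Ldha peak and 97.1% a higher fold than the Pdk1 peak. Peaks of the same list away from Sirt6 had a median fold of 10.4. The untreated WT H3K9ac list held 849 peaks with 16 tags or fewer at the summit, but only 25 with a −log10 q below that of the KO peak at Ldha and 1 below that of the KO peak at Pdk1. The KO and WT H3K9ac libraries held 7217855 and 7719553 tags, with estimated fragment lengths of 212 and 155 bp, and the part of that difference in the calls was not tested. With a −log10 q of at least 10 neither call was left. In the same list 23.0% of the peaks that overlapped a WT Sirt6 peak passed that limit, and 71.8% of those away from Sirt6.

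In the untreated KO H3K9ac list the nearest peaks to the other 3 genes lay closer than in any other acetylation list. They were 35.9 kb before the start of Slc2a1 (fold 5.40), 98.5 kb beyond the end of Tpi1 (fold 4.92) and 139 kb before the start of Aldoc (fold 4.86). Those near Tpi1 and Aldoc overlapped a WT Sirt6 peak and the one near Slc2a1 did not. Of all 3593 peaks of this list, 37.5% overlapped a WT Sirt6 peak, a higher share than in any other acetylation list. All 5 nearest sites, those inside Ldha and Pdk1 included, were called in this list alone. The share of all peaks of this list that were called in it alone was not counted here. Whether these 5 sites differ in that from the rest of the list was therefore not tested. The median distance from a tile midpoint to a peak of this list was 286 kb. In the other 7 lists, all with fewer peaks, it was 367 to 548 kb, so shorter distances in this list are also the background.

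In the other 7 lists the nearest peaks lay 229 to 2590 kb from the genes, with a median over the 35 pairs of gene and list of 1077 kb. For 30 of these 35 pairs the nearest site was called in more than 1 acetylation list, and for 9 it overlapped a WT Sirt6 peak. The same site often served several lists, so the pairs are not separate sites and the first count is partly built in. The share of all peaks of these lists that were called in more than 1 list was not counted either. Of all peaks in each of these 7 lists, 5.59% to 26.3% overlapped a WT Sirt6 peak. In the untreated WT H3K9ac list the distances were 385 kb at Ldha, 560 kb at Slc2a1, 602 kb at Tpi1, 1860 kb at Aldoc and 2098 kb at Pdk1, where the median for tile midpoints was 426 kb. Slc2a1, Ldha, Pdk1 and Aldoc each had their nearest WT H3K9ac peak at the same site before and after RA, and Tpi1 did not. For Ldha it ran from 54495990 to 54496174 in the untreated list, with a fold of 13.7. Promoters of active genes commonly carry H3K9ac, and none of the 4 H3K9ac lists had a call at the starts of Slc2a1, Tpi1 or Aldoc. The acetylation lists were short, with 2063 to 3593 peaks from 5782181 to 10250030 tags, and were called without a control library, so a missing call is not a missing mark.

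**Figure D3:**
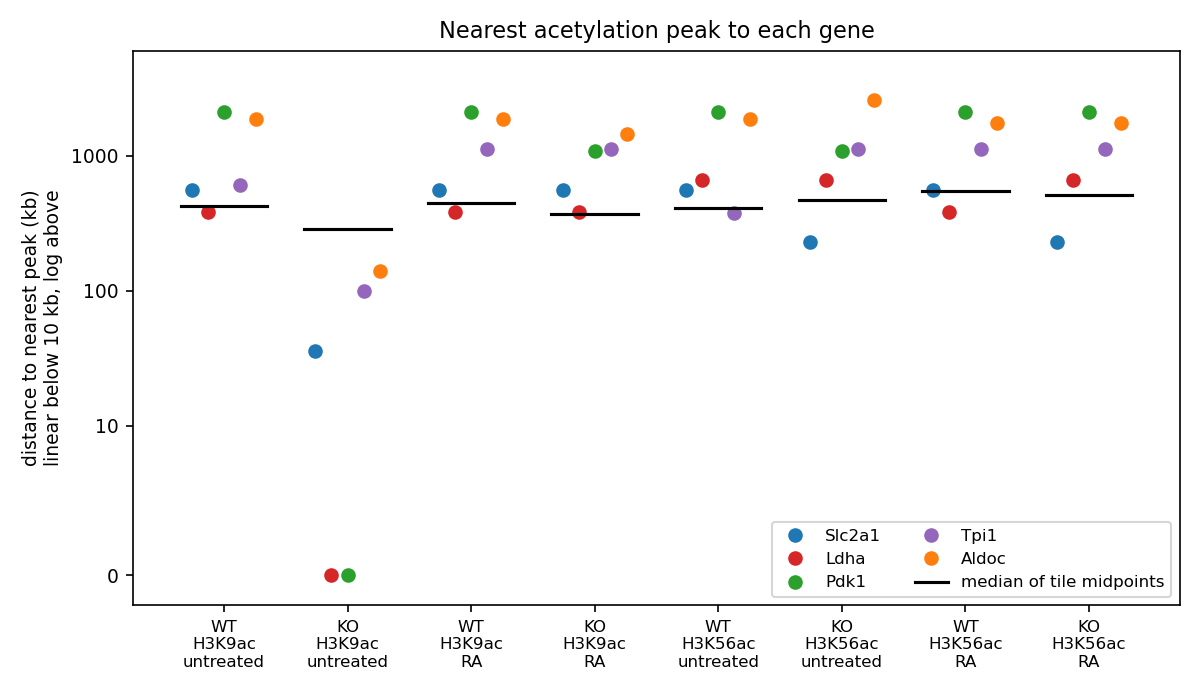
Distance in kb from the bounds of each gene to the nearest peak in each of the 8 acetylation lists, on an axis that is linear below 10 kb and logarithmic above. Coloured points are the 5 genes and black bars the median distance from tile midpoints. In the untreated KO H3K9ac list the points lie between 0 and 139 kb, below the bar at 286 kb, and in the other lists between 229 and 2590 kb.

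For 5-hydroxymethylcytosine, the single listed window at these loci lay 2.9 kb before the start of Ldha, on chromosome 7 from 54097501 to 54098000, and was listed as higher in KO. The KO IP library held 41 reads there (RPKM 7.18) and the WT IP library 15 (RPKM 2.23). The input libraries held 25 reads in KO (RPKM 2.09) and 18 in WT (RPKM 2.17). The KO to WT ratio, scaled to library size, was 3.22 for the IP (exact 95% interval 1.75 to 6.27) and 0.965 for the input (0.506 to 1.88). Within KO the IP stood 3.44 times above its input (2.04 to 5.90), and within WT 1.03 times (0.483 to 2.16). The table holds only windows picked for their IP difference, so an IP ratio away from 1, and its contrast with the input, follow from that choice and are given as a description. Each genotype has 1 library, and the intervals cover reads and not cells.

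The authors' deposited table gave this window a log2 fold change of 1.69, a p of 4.82e-05 and an adjusted p of 1. Its fold change was near the median of 1.78 over the 2218 windows higher in KO, and it ranked 548 among them by p. The window lay 2.67 kb from the nearest Sirt6 peak, the one that crosses the start bound of Ldha. In RefSeq the next gene on that side is Gtf2h1, which encodes a subunit of a general transcription factor. RefSeq gives Ldha a length of 13354 bp, more than the 10301 bp of the bounds used here, and its ends were not placed on mm9. Windows higher in KO fell in 2.31% of the genome tiles and windows lower in KO in 1.52%, and the loci held 1 and 0. Windows that are not listed have no values in the deposited table, so the level of 5-hydroxymethylcytosine at the other 4 genes was not analysed here.

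**Figure D4:**
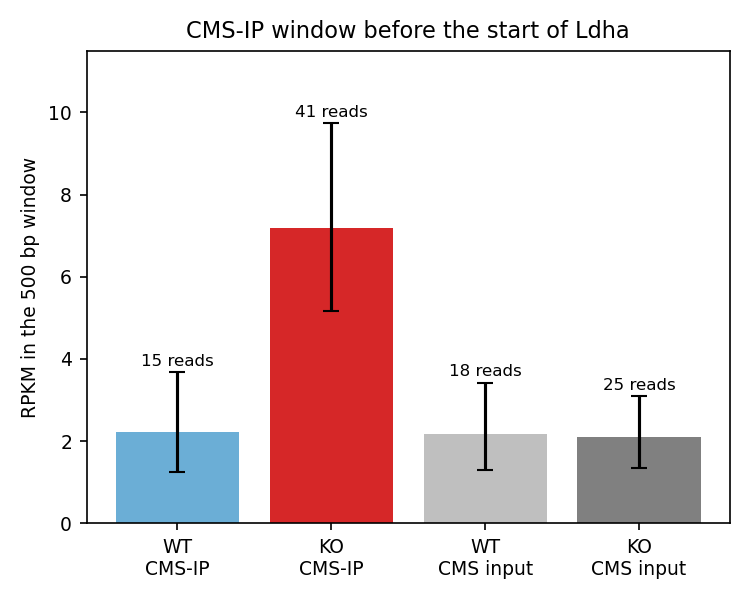
RPKM in the 500 bp window before the start of Ldha in the 4 CMS-IP libraries, with 1 bar per library, exact 95% Poisson intervals on the reads as error bars and the reads written above. The KO IP bar, at 7.18, stands above the WT IP bar at 2.23, and both inputs lie at 2.09 and 2.17.

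Across the 3 assays Ldha was the locus with most features, since it held 3 Sirt6 peaks, the KO H3K9ac peak and the window. Pdk1 held a Sirt6 and a KO H3K9ac peak, and Slc2a1, Tpi1 and Aldoc held Sirt6 peaks alone. This order rests on weak calls. With a −log10 q of at least 10, Ldha, Slc2a1 and Pdk1 each kept 1 Sirt6 peak, and no KO H3K9ac peak was left. The window was not left with the gene bounds alone or with an adjusted p under 0.1. Sirt6 peaks covered 5.38% of the Tpi1 locus, 5.07% of the Ldha locus, 1.48% of the Aldoc locus, 1.39% of the Slc2a1 locus and 1.13% of the Pdk1 locus. Intervals given above cover counting error only.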

How the data were processed

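For ChIP-seq the submitters' processing notes name BWA 0.5.9, Picard and MACS2 2.0.10. MACS2 was run on each library with a q limit of 0.01 and 1 tag per position, per the file headers, against whole-cell extract for Sirt6 and with no control for acetylation. The deposited lists give the pileup signal at the summit, a −log10 p and q, and a fold enrichment. The build is mm9, per the submitters' processing notes for CMS-IP, and the build of the peak lists is taken to be the same. The authors' CMS-IP table gives read counts and RPKM per 500 bp window, and edgeR's log2 fold change, p-value and adjusted p. Every listed p is under 0.001.

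A feature belonged to a locus where 1 bp or more overlapped. Poisson intervals use summit tags as counts, and ratios use exact (Clopper-Pearson) intervals scaled to library sizes of 11413874 (KO IP), 13451714 (WT IP), 23924232 (KO input) and 16623305 reads (WT input), implied by counts and RPKM. Tiles ran from the first to the last feature on chromosomes 1 to 19 and X. All 5 loci matched RefSeq symbols. The counting was tested on simulated data. Alternatives were 0 or 50 kb on each side, midpoints inside the locus, a −log10 q of at least 10 and an adjusted p under 0.1. All 5 genes and every feature within 10 kb were named, by rule. The genes, lists and rules were chosen with earlier results of these data known. A further list of glycolysis genes was not analysed here, since no mm9 annotation was used. Software: scipy 1.17.1, pandas 2.3.3, numpy 2.4.6 and matplotlib 3.10.9 under Python 3.11.15.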

Additional observations from a re-analysis of the deposited data

How the results depend on the processing

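The number of WT Sirt6 peaks at the 5 loci, 10, was 7 with the gene bounds alone, 17 with 50 kb on each side and 3 with a −log10 q of at least 10. With the bounds alone Aldoc had none, and at the stricter q Tpi1 and Aldoc had none. The 2 untreated KO H3K9ac peaks became 0 at the stricter q and 3 with 50 kb. The single CMS-IP window higher in KO became 0 with the bounds alone, 2 with 50 kb and 0 with an adjusted p under 0.1. The other 7 acetylation lists and the windows lower in KO stayed at 0 under every alternative run, and midpoints changed no count. No paired analysis was possible because each group held 1 library, and leaving out replicates was not possible for the same reason. The depth of the WT Sirt6 library, 2008232 tags, leaves 6 to 14 tags behind each call.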

Other observations

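Beyond the 10 kb on each side, further Sirt6 peaks lay within 50 kb of 4 of the genes. Before the start of Tpi1, on the side of Usp5, 3 peaks lay 13.5, 14.2 and 15.2 kb away, with folds of 6.47, 8.76 and 7.01. A CMS-IP window on the same side, 44.0 kb before the start of Tpi1 and higher in KO, had a log2 fold change of 0.755 in the authors' deposited table. That is below the median of 1.78 over the 2218 windows higher in KO, all of them listed for their IP difference. Around Aldoc, a peak lay 20.8 kb before the start (fold 9.13) and another 15.7 kb after the end (fold 7.91), and both had a higher fold than the peak next to the gene. Ldha had a peak 48.8 kb before its start with a fold of 12.0, close to the 12.1 of the peak inside the gene. Slc2a1 had a weak one 36.5 kb after its end (fold 4.58), and on its other side the next Sirt6 peak was 487 kb away. The peak inside Pdk1 stood alone, with the next ones 84.8 kb before its start and 382 kb after its end.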
